A study of Homo sapiens with 37 samples.

Results

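The RNA found near APEX-CBX1 was compared with the total RNA of the same labelled cells. The members are the 4 APEX-CBX1 libraries of the series, 2 streptavidin pulldowns and 2 inputs, chosen by their construct and fraction in the sample titles, of 37 libraries in all. The other 16 libraries from unstressed (naive) cells carry C1-APEX, APEX-GFP, APEX-eIF4E or APEX-eIF4A, again with 2 pulldowns and 2 inputs each. They show where CBX1 differs, and also enter the count filter, the scaling and the common estimate of spread behind the CBX1 calls. All are HEK293T, a cell line derived from human embryonic kidney, and all cells in both fractions were given 500 µM biotin-phenol for 30 min and 1 mM H2O2 for 1 min before RNA was taken up in TRIzol. How the fusion proteins were expressed, and whether replicates came from separate cultures, is not stated in the labels, so a p-value here speaks to variation among these libraries, part or all of which may be technical.

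CBX1, also called HP1-beta, is a chromatin protein of the nucleus. It binds histone H3 methylated at a particular lysine, a mark of heterochromatin, the condensed and mostly silent part of the genome. APEX is an engineered peroxidase that turns biotin-phenol into a short-lived radical when peroxide is added, and this radical attaches biotin to molecules close to the enzyme. Streptavidin beads then hold the biotinylated RNA, so a transcript that is richer in pulldown than in input was held by the beads more than its abundance alone would give. GFP is a fluorescent protein with no RNA partner of its own, eIF4E recognises the cap of mRNAs, and its partner eIF4A unwinds RNA at the start of translation. In bulk libraries, fewer cells with a transcript and less of it per cell cannot be told apart.

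The table holds raw counts for 60483 versioned Ensembl gene IDs, with no gene names, so results are given by ID and by the behaviour of groups of IDs. The CBX1 inputs held 1723135 and 1832646 counts and the CBX1 pulldowns 2600318 and 2996415, within the range of 1419968 to 3276410 of the other naive libraries. The 10 highest IDs took 69.7% ± 1.64 of counts in the CBX1 inputs and 62.8% ± 4.23 in the pulldowns (SD, n = 2), which left 533801 to 541894 and 889710 to 1204531 counts for all other IDs. Replicates correlated at 0.942 for the CBX1 inputs and 0.93 for the pulldowns, in log2 CPM (counts scaled to a common library size) across 12427 IDs, which are not independent replicates. A pair outside the CBX1 group stands apart: the C1 pulldowns correlated at 0.761, against 0.904 to 0.951 for the other pulldown pairs. With the 8 pulldowns of other constructs, C1 pulldown number 1 correlated at 0.751 to 0.776 and number 2 at 0.85 to 0.884. Both enter the common estimate of spread, so counts of calls are also given without each of them.

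Of 12427 IDs tested, 486 differed between CBX1 pulldown and input at an edgeR adjusted p under 0.05 (3.91% of the IDs tested), 199 higher in the pulldown (1.6%) and 287 lower (2.31%). These are called gained and lost from here on. With the CBX1 inputs as reference, gained IDs were fewer and had the larger median change, an order that turns with the inputs of the other constructs as reference (medians of 0.87 and -0.98). Over the CBX1 inputs their median log2 fold change was 1.41, with the middle 50% between 0.98 and 2.07, against -0.99 and -1.25 to -0.73 for the lost IDs. At least 2-fold changes made up 148 of the 199 gains and 140 of the 287 losses, and at least 4-fold changes 55 and 9. The median over all tested IDs was 0.02. The 4 CBX1 libraries separated without overlap for each gained and each lost ID, as they did for 6356 IDs in all (51.1%).

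The number of calls depended on single libraries. Leaving out any CBX1 library left 1 CBX1 group with a single library assumed to vary like the others, so folds are given. The median of the 199 gained IDs was 1.35 without CBX1 input replicate 1 and 1.38 without input replicate 2. It was 1.19 without CBX1 pulldown replicate 1 and 1.59 without pulldown replicate 2. For the 287 lost IDs the medians were -0.924, -1.03, -0.905 and -1.02, in the same order. Without C1 pulldown number 1 there were 918 calls, 392 higher and 526 lower, among them all 199 and 287. Without C1 pulldown number 2 there were 916, 415 higher and 501 lower, among them 199 and 286 of these. Folds are relative to TMM scaling, which sets the bulk of IDs near 0. With plain library size the median over all IDs moved to 0.41 and 849 IDs were higher and 62 lower. Gains thus made up 93.2% of calls against 40.9% with TMM. Each of the 199 and 287 kept its sign. The smallest called loss with TMM, -0.437, was larger in size than the shift of the median, so the kept signs test nothing.

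**Figure D1:**
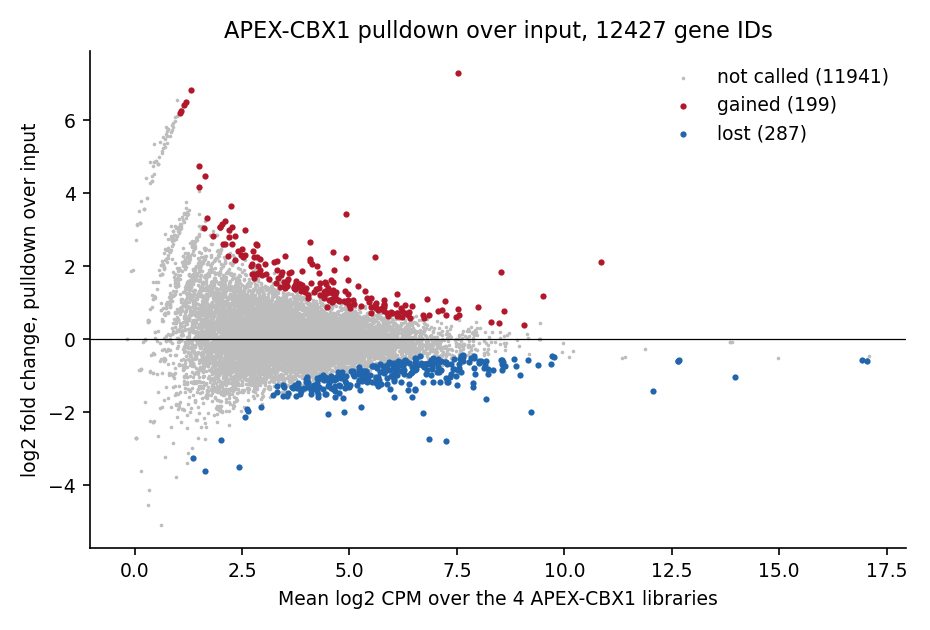
Each point is 1 of 12427 gene IDs, with its mean log2 CPM over the 4 APEX-CBX1 libraries on the horizontal axis and its log2 fold change of pulldown over input on the vertical axis; red marks the 199 gained IDs, blue the 287 lost IDs and grey the rest. Gained IDs spread over the whole range of levels and reach 7.28, while lost IDs gather at the right, among the abundant IDs.

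Gains and losses lay at different levels of abundance. The median input level was 12.1 CPM for gained and 79.8 CPM for lost IDs, against 11.1 CPM over all tested IDs. In the pulldowns the medians were 33.1 and 42.2 CPM. The sets were called on these same libraries, so the smaller gap is partly fixed by the choice and is given as a description. When the tested IDs were cut into 5 bins of equal size by their mean level in the 4 libraries, the lowest bin held 21 gained and 3 lost IDs, and the highest held 73 gained and 204 lost (2.94% and 8.21% of its IDs). Standard errors of the log2 fold changes had a median of 0.88 in the lowest bin and 0.221 in the highest, so a small loss of a scarce RNA was not detectable at this depth. Among the 10 most abundant IDs, none was gained and 4 were lost, with log2 fold changes of -1.04 to -0.08 over all 10 and a smallest edgeR adjusted p of 0.000182.

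As a share of all counts, the gained IDs took 0.661% ± 0.068 of the CBX1 inputs and 2.27% ± 0.766 of the pulldowns (SD, n = 2). The lost IDs took 37.7% ± 1.06 and 31.4% ± 1.42. Outside the 10 highest IDs, the gained share went from 2.18% ± 0.106 to 6.02% ± 1.37 and the lost share from 18.6% ± 0.823 to 11.0% ± 0.901. The same IDs chose the sets and are summed here, so these shares describe the size of the change and test nothing. The lost IDs thus made up a large part of the library in both fractions, most of it in the 4 lost IDs among the 10 highest. The gained IDs were a small part even after enrichment.

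Some gained IDs were scarce in the inputs, at a share close to that over all tested IDs. Fewer than 10 counts in each CBX1 input were found for 52 of the 199 gained IDs, for 0 of the 287 lost IDs and for 3147 of all 12427. For 5 gained IDs both inputs held 0 counts. Against a floor of 3 counts over both inputs, 0.926 CPM, these 5 were at least 4.29-fold to 6.68-fold higher in the pulldowns, where they measured 3.97 to 6.19 CPM. Placing them at that bound left the median of the gained IDs at 1.41. The floor covers counting error only, because reads without molecular identifiers are not independent molecules.

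ENSG00000245848.2 had the largest gain. It measured 17.0 and 12.7 CPM in the CBX1 inputs and 3007 and 1622 CPM in the CBX1 pulldowns, or 14.9 ± 3.0 and 2314 ± 979 CPM (SD, n = 2). Both pulldowns lay far above both inputs, and replicate 1 was the higher of the pulldowns. The log2 fold change was 7.28 ± 1.04 (SE; edgeR adjusted p = 0.0035). The call was lost without CBX1 input replicate 1 (7.48, edgeR adjusted p = 0.0713) or CBX1 input replicate 2 (7.07, edgeR adjusted p = 0.0637). The gain was not found to differ from that at other constructs: over their own inputs, C1 gave a log2 fold change of 9.88, GFP 7.80, eIF4E 7.13 and eIF4A 6.19. CBX1 minus the mean of these 4 was -0.47 ± 1.27 (SE; edgeR adjusted p = 0.952), an error wide enough to hide a difference of several fold.

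ENSG00000269821.1 had the next largest gain by the same rule (a mean log2 CPM of at least 3, a call and no overlap between fractions). It measured 7.55 and 10.3 CPM in the CBX1 inputs, from 12 and 17 counts, and 119 and 72.4 CPM in the CBX1 pulldowns, from 456 and 206 counts. The log2 fold change was 3.42 ± 0.31 (SE; edgeR adjusted p = 3.34e-08). The inputs of the other constructs were higher than the CBX1 inputs, with C1 at 43.2 ± 5.41, GFP at 29.4 ± 3.36, eIF4E at 49.9 ± 8.45 and eIF4A at 34.9 ± 7.62 CPM (SD, n = 2 each). No input of another construct overlapped the CBX1 inputs. The CBX1 pulldowns overlapped those of C1 (62.6 and 78.4 CPM) and eIF4E (103 and 67.1 CPM) and lay above those of GFP (47.7 and 49.8 CPM) and eIF4A (43.0 and 51.7 CPM).

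The gain of ENSG00000269821.1 at CBX1 therefore owed more to a low CBX1 input than to a high pulldown. Its CBX1 pulldowns did not lie above those of every construct. Over the mean of the other 4 inputs its log2 fold change was 1.31 ± 0.17 (SE; edgeR adjusted p = 5.2e-06), still a gain but a smaller one. The CBX1 inputs lay below the other inputs with a difference of -2.11 ± 0.30 on the log2 scale (SE; edgeR adjusted p = 8.28e-05). None of the other constructs had a called change of this ID, with log2 fold changes of 0.72 (C1), 0.73 (GFP), 0.77 (eIF4E) and 0.40 (eIF4A), over inputs of the same construct. The difference of CBX1 from their mean was 2.76 ± 0.34 (SE; edgeR adjusted p = 3.61e-05), and 0.66 ± 0.17 (edgeR adjusted p = 0.0163) between the pulldowns with no input term. The input-adjusted difference was called against each of them, at 2.70, 2.69, 2.65 and 3.02 against C1, GFP, eIF4E and eIF4A.

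ENSG00000244642.3 had the largest loss by this rule. Its CPM fell from 424.5 and 368.8 in the CBX1 inputs to 60.9 and 52.4 in the CBX1 pulldowns, with replicates of each fraction close together. The log2 fold change was -2.80 ± 0.19 (SE; edgeR adjusted p = 9.83e-11). It was also lower at C1 (-2.08), GFP (-3.13), eIF4E (-3.57) and eIF4A (-3.14), and CBX1 minus their mean was 0.18 ± 0.21 (SE; edgeR adjusted p = 0.839). Over the inputs of the other constructs the loss was -2.88.

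ENSG00000239437.3 followed with nearly the same pattern. It went from 316 and 277 CPM in the CBX1 inputs to 47.1 and 40.8 CPM in the CBX1 pulldowns, a log2 fold change of -2.75 ± 0.18 (SE; edgeR adjusted p = 9.83e-11). C1 gave -1.97, GFP -3.03, eIF4E -3.45 and eIF4A -3.01, and the difference was 0.12 ± 0.20 (SE; edgeR adjusted p = 0.907). ENSG00000244642.3 and ENSG00000239437.3 belong to a set of 3 lost IDs whose counts follow each other across the 20 naive libraries, with a median correlation of 0.979 after group means are taken out. Near-identical copies that compete for the same reads can behave this way, and how such reads were counted is not given in the sources used here, so the pair may stand for a single RNA.

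**Figure D2:**
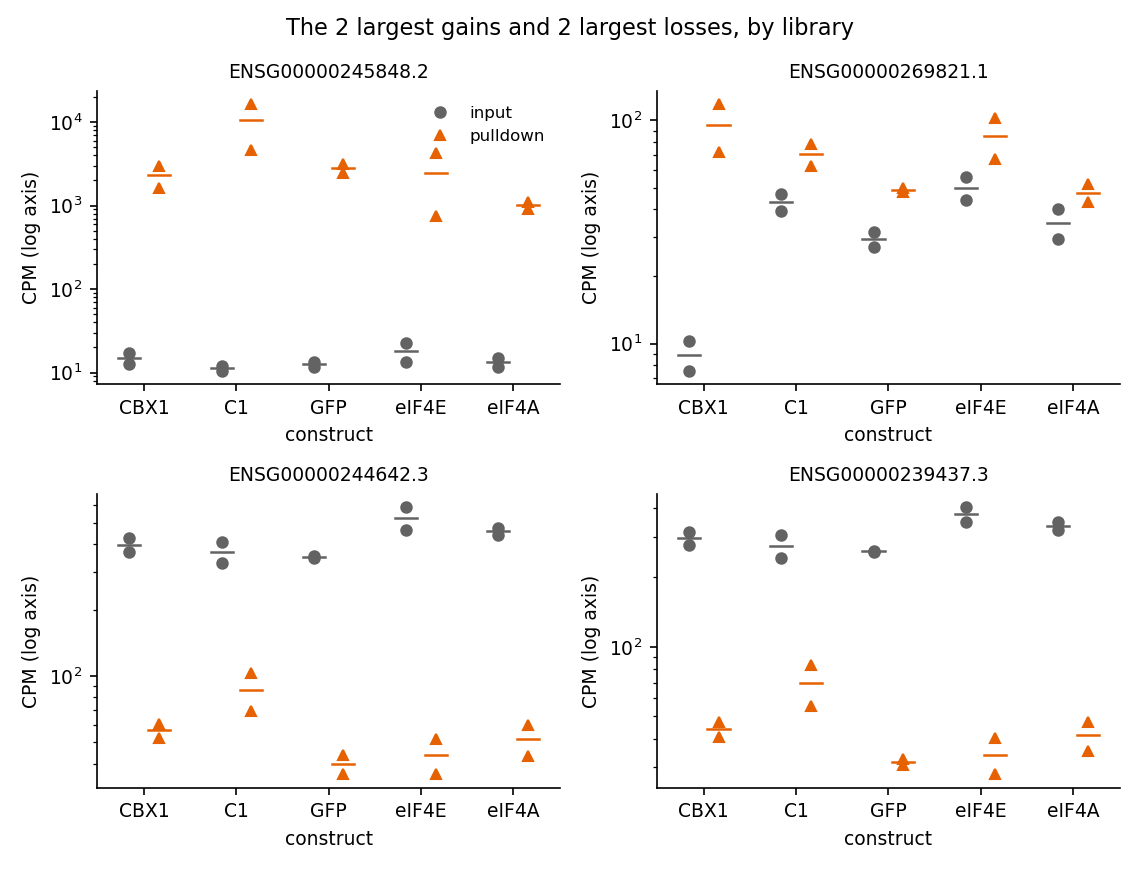
CPM on a log axis of the 4 printed IDs in the 20 naive libraries, by construct; grey circles are inputs, orange triangles pulldowns and short lines the mean of 2 libraries. ENSG00000245848.2 rises and the 2 lower panels fall at every construct, while for ENSG00000269821.1 the CBX1 inputs, at 7.55 and 10.3 CPM, lie below all other inputs.

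The leading IDs were then described as groups. By the rule given above, 431 IDs qualified, 152 higher and 279 lower. The 12 largest gains had log2 fold changes of 2.11 to 7.28 and the 12 largest losses -2.80 to -1.57. Over the inputs of the other constructs all 12 gains kept their direction and 6 stayed over 2-fold, and all 12 losses kept theirs and 11 stayed over 2-fold. A test of the difference from the other constructs called 6 of the 12 gains as larger at CBX1. It called 3 of the 12 losses as smaller at CBX1 and 0 as larger. Over all IDs 0.386% were called higher and 0.0966% lower in this difference, but the 12 were picked for extreme CBX1 values, which are a term of it, so nothing is read from these counts. The 3 losses belong to a single family of 7 IDs, described below, that may share reads.

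The choice of reference input moved the gains more than the losses. Gained and lost IDs were called with the CBX1 inputs and pulldowns, so a value there that was low or high entered the choice, and the same pulldowns enter the fold over either reference. Kept directions and repeated calls are therefore partly fixed by the choice and are given as a description. With the mean of the other 4 inputs as reference, the median log2 fold change of the 199 gained IDs was 0.87 in place of 1.41, while that of the 287 lost IDs was -0.98 in place of -0.99. Direction was kept by 198 of the 199 gained and 283 of the 287 lost IDs. By edgeR 130 of the 199 were again called higher, where 6.57% of all IDs were, and 246 of the 287 lower, where 5.91% were. Of the 148 gains of at least 2-fold, 55 passed that size with both references, against 113 of the 140 losses.

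The CBX1 inputs lay below the other inputs for 163 of the 199 gained IDs and for 136 of the 287 lost IDs. Tested directly, they were lower than the other inputs for 14 gained and 0 lost IDs (0.378% of all IDs) and higher for 2 gained and 15 lost IDs (0.885% of all IDs). The gap is also given by the depth of the CBX1 inputs, which are themselves a term of it, so IDs that are low there fall into the shallow class by construction. For 65 gained IDs with a mean of at most 10 counts in the CBX1 inputs, the median was 2.29 over the CBX1 inputs and 1.09 over the other inputs, with no reading drawn from the split. For 80 gained IDs with over 10 to 50 counts the medians were 1.35 and 0.78. For 54 gained IDs with over 50 counts they were 0.79 and 0.85. For 48 lost IDs with over 10 to 50 counts the medians were -1.32 and -1.41, and for 237 lost IDs with over 50 counts -0.90 and -0.87.

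**Figure D3:**
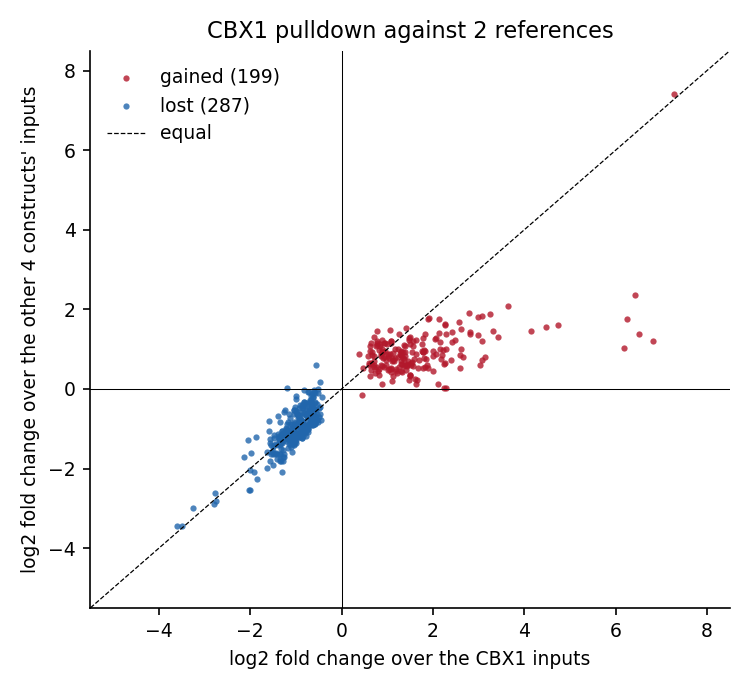
Each point is a gained (red, 199) or lost (blue, 287) ID, with its log2 fold change of CBX1 pulldown over the CBX1 inputs on the horizontal axis and over the mean of the other 4 constructs' inputs on the vertical axis; the dashed line marks equal values. Lost IDs lie along the line, with medians of -0.99 and -0.98, and many gained IDs lie below it, with medians of 1.41 and 0.87.

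The IDs gained or lost at CBX1 tended the same way at the other constructs, whose libraries were separate. The 199 gained IDs had a median log2 fold change of 0.69 at C1, 0.58 at GFP, 0.46 at eIF4E and 0.37 at eIF4A, where the median over all tested IDs was between 0.00 and 0.02. They were above 0 in 183, 169, 155 and 146 cases. Called higher were 53 at C1 (2.89% of all IDs were), 49 at GFP (1.95%), 25 at eIF4E (1.22%) and 30 at eIF4A (1.16%), and called lower 1 at C1 and 1 at eIF4E. Of the 199, 127 were called higher at none of the other constructs and 17 at all 4. The same was not counted over all tested IDs, so nothing is read from these 2 counts.

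Losses were seen at the other constructs too. The 287 lost IDs had medians of -0.77 at C1, -0.73 at GFP, -0.58 at eIF4E and -0.55 at eIF4A, and were below 0 in 275, 276, 271 and 277 cases. Called lower were 144 at C1 (3.56% of all IDs were), 132 at GFP (2.09%), 85 at eIF4E (1.29%) and 77 at eIF4A (1.02%), and none was called higher at any of them. Of the 287, 92 were called lower at no other construct and 43 at all 4, again with no such count over all IDs and nothing read from it. A call at CBX1 with no call elsewhere does not show a difference, which was tested next.

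**Figure D4:**
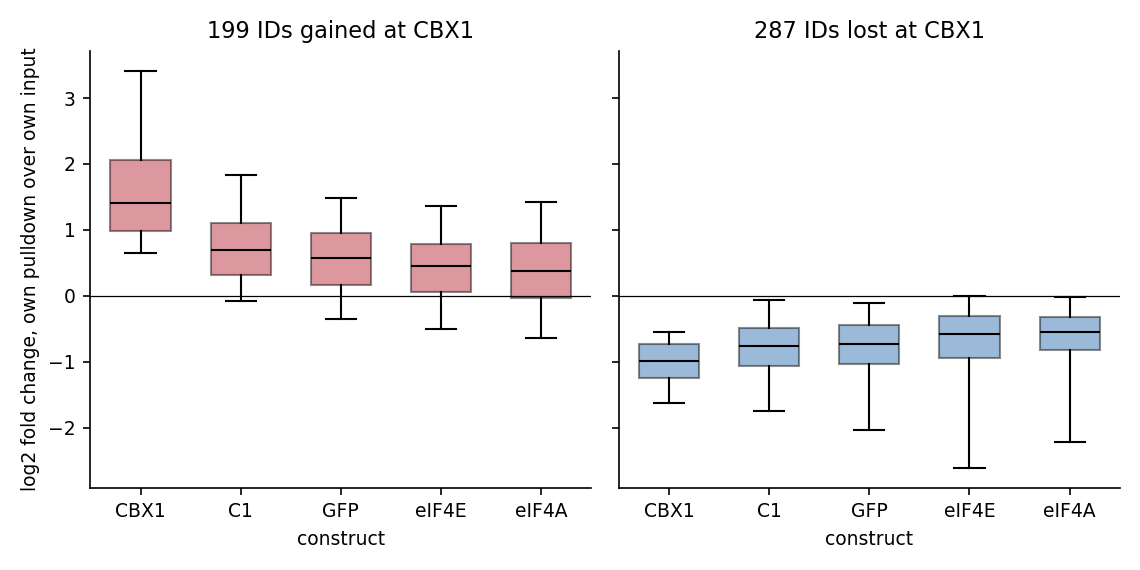
Log2 fold change of each construct's pulldown over its own input for the 199 IDs gained (left) and the 287 IDs lost (right) at CBX1; boxes span the middle 50%, the line is the median and whiskers reach the 5th and 95th percentiles. The sets were chosen on the CBX1 values, which lie farthest from 0; medians at the other constructs run from 0.37 to 0.69 and from -0.77 to -0.55.

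The difference between CBX1 and the mean of the other 4 constructs, each over its own input, asks what marks the CBX1 pulldown among them. It was called for 60 IDs (0.483% of 12427), 48 higher at CBX1 (0.386%) and 12 lower (0.0966%), and 1196 IDs had an unadjusted p under 0.05. With each CBX1 library left out in turn, 1 CBX1 group held a single library. In these fits the 48 and the 12 kept their signs, which the choice partly fixes. The number of calls depended on which CBX1 or C1 library was left out. With library size scaling it was 43, 30 higher and 13 lower, and with DESeq2 67, 46 higher and 21 lower, so the share of higher calls was 69.8% and 68.7% in place of 80.0%. Against single constructs the difference was called for 8 IDs with C1 (0.0644% of all IDs), 20 with GFP (0.161%), 40 with eIF4E (0.322%) and 46 with eIF4A (0.37%), of which 7, 17, 34 and 39 were higher at CBX1.

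For most IDs with a higher value at CBX1, the mean log2 fold change of the other constructs was below 0. That mean is a term of the difference that chose these IDs, so its sign is a description. At C1 alone, 29 of the 48 lay below 0 and 19 above. The CBX1 log2 fold change is a term of the difference too, so calls at CBX1 among the 48 or the 12 are also a description. Of the 48 IDs, 18 were gained at CBX1 (1.6% of all IDs were), 7 were lost there (2.31%) and 23 were not called. Their median log2 fold change was 0.59 at CBX1 and -0.16 at C1, -0.64 at GFP, -1.44 at eIF4E and -1.46 at eIF4A, and the mean of the others was below 0 for 41 of 48. The difference had a median of 1.80, its pulldown term a median of 1.19 and its input term, CBX1 minus the others, a median of -0.54. Between pulldowns with no input term, 40 of the 48 were called the same way (3.1% of all IDs were called higher); this term is part of the difference that chose the 48, so the count is a description. The 12 IDs lower at CBX1 had a median of -0.37 there against 0.50 for the mean of the others; 2 of them were lost at CBX1 and 10 were not called.

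**Figure D5:**
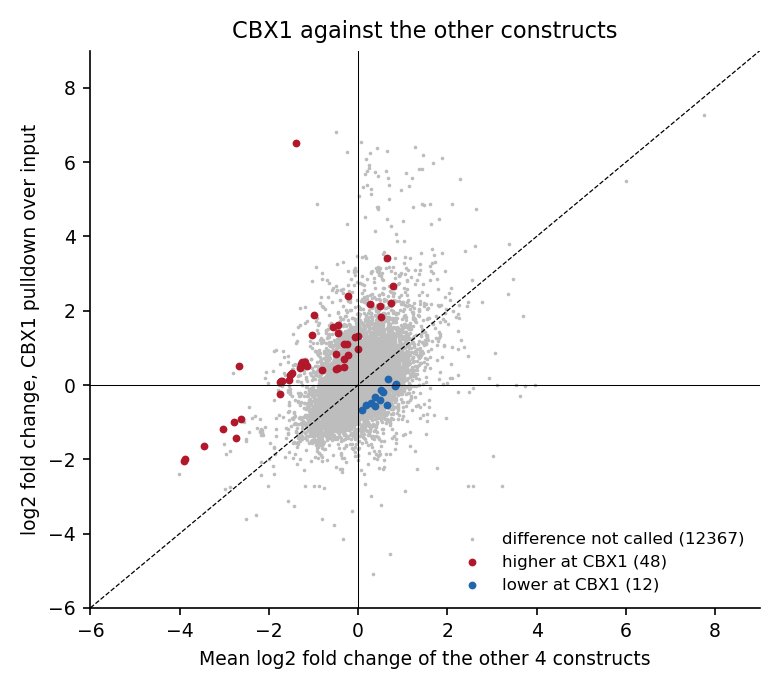
Each point is 1 of 12427 IDs, with the mean log2 fold change of the other 4 constructs on the horizontal axis and that of CBX1 on the vertical axis, each pulldown over its own input; the dashed line marks equal values. Of the 48 IDs called higher at CBX1 (red), 41 lie left of 0, and the 12 called lower (blue) lie right of 0. Both axes enter the difference that chose these IDs.

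Among the 48, 20 IDs fell into 2 families whose counts rise and fall together. Families were formed after the data were seen, by average linkage at a correlation of at least 0.97 in log2 CPM over the 20 naive libraries among called IDs; their members may share reads, so each family may be far fewer RNAs than IDs. The first holds 13 IDs, none called at CBX1. Its summed level was 1972 and 1825 CPM in the CBX1 inputs and 2262 and 2432 CPM in the CBX1 pulldowns. At GFP it was 1993 and 1992 CPM in inputs and 703 and 1060 CPM in pulldowns, at eIF4E 3433 and 3869 against 938 and 629 CPM, and at eIF4A 3224 and 2722 against 775 and 415 CPM. C1 lay between, at 2603 and 2716 against 1782 and 2559 CPM.

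In every GFP, eIF4E and eIF4A pulldown this family was thus below every input, and at CBX1 both pulldowns were above both inputs. The median log2 fold change over its 13 IDs was 0.32 at CBX1, -0.25 at C1, -1.20 at GFP, -2.16 at eIF4E and -2.24 at eIF4A. All 13 were called lower at GFP, eIF4E and eIF4A and 0 at CBX1 and C1. The call of the difference is what placed the family here, so these values describe it and test nothing further.

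The second family holds 7 IDs that were lost at all 5 constructs, least at CBX1. Its summed level was 9338 and 8342 CPM in the CBX1 inputs and 3957 and 2759 CPM in the CBX1 pulldowns. The other pulldowns held 809 to 2652 CPM, below both CBX1 pulldowns, and the other inputs 7714 to 12450 CPM. Mean CBX1 input levels of single members ran from 58.1 to 7040 CPM, so most of the CBX1 input sum came from 1 ID. The median log2 fold change was -1.42 at CBX1, -2.48 at C1, -3.00 at GFP, -3.59 at eIF4E and -3.06 at eIF4A. These 7 are the lost IDs among the 48. The call of the difference placed this family here too, so the smaller loss at CBX1 is partly fixed by the choice and is a description.

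Outside both families 28 of the 48 IDs remain, 18 of them gained at CBX1, 10 not called and 0 lost. Their median log2 fold change was 1.30 at CBX1 and -0.32 for the mean of the others. For these the input term had a median of -0.90 and the pulldown term one of 0.70, where the 48 as a whole had -0.54 and 1.19. Families of at least 3 IDs held 0 of the 199 gained IDs, 46 of the 287 lost IDs, 20 of the 48 and 0 of the 12. The correlation that formed them is harder to reach with few counts and includes differences between groups. With group means taken out, median correlations ran from 0.652 to 1 over the families. The 0 and the 46 therefore do not compare gained with lost RNA. The 287 lost IDs came to 241 families or single IDs and the 48 to 30.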

How the data were processed

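RNA from APEX labelling was sequenced in 20 naive HEK293T libraries in 10 groups of 2; the stressed libraries were not used here. The deposited table gives unscaled read counts for each Ensembl gene ID. Per the submitters' processing notes, the authors made these counts with cutadapt, HISAT2 and featureCounts on GRCh38; tool versions, strand use and the counting of multi-mapping reads are not given in the sources, so IDs of near-identical or overlapping genes are uncertain. Totals per library are given in the report, and reads carry no molecular identifiers.

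Groups were taken from sample titles. Counts were tested with edgeR 4.0.16 in R 4.3.3 over all 20 libraries with a mean per group: low counts were removed by group with filterByExpr, libraries scaled by TMM, dispersions taken from estimateDisp, and a robust glmQLFit tested by its 2-sided quasi-likelihood F, with Benjamini-Hochberg adjustment over 12427 IDs and a threshold of 0.05. Standard errors are the size of the log2 fold change divided by the square root of F. Levels are CPM at TMM library sizes, and log2 CPM used a prior count of 2. Differences between constructs are contrasts of pulldown over input. Replicates were set against each other by chi-square, using IDs that reach 10 counts, and none differed by less than sampling noise (1.31 to 9.2 per ID).

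Alternatives were library size, DESeq2 1.42.0, no count filter, only the CBX1 libraries, a replicate block, no input correction, C1-APEX left out and each CBX1 replicate left out. Leaving out C1 pulldown number 1 or 2, library size without the 10 highest IDs and the other inputs as reference were added after seeing the data. The members, lists and tests were chosen with earlier results of these data known.

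The gene table for GRCh38.p14 used here matched 0 of the IDs, so the 24 gene lists, markers of the cell line and of other cell types, RNA classes and the CBX1 transcript were not analysed here, and no sequence is printed. Printed IDs are the largest 2 in each direction by the rule in the report.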

Additional observations from a re-analysis of the deposited data

Results flagged for a closer look

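The enrichment of RNA over input differed between CBX1 and the mean of the other 4 constructs for 60 IDs, by the edgeR test of the difference itself (48 higher and 12 lower at CBX1).

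ENSG00000269821.1 showed such a difference, of 2.76 on the log2 scale, with a larger log2 fold change over input at CBX1 than at each of the other 4 constructs. With the input term kept, the difference ran from 2.36 to 3.06 over the settings tried. With no input term it was 0.66 (edgeR adjusted p = 0.0163), and the CBX1 inputs lay below the other inputs by a log2 difference of -2.11. Over all these settings the edgeR or DESeq2 adjusted p was 7.4e-17 to 0.0163.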

How the results depend on the processing

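For CBX1 pulldown over input, 486 IDs became 911 with library size, 860 with only the 4 CBX1 libraries, 918 or 916 without C1 pulldown number 1 or 2, 1551 with the other inputs as reference and 85 to 431 with each CBX1 replicate left out. DESeq2 gave 409 (127 higher, 282 lower; 70 of the 199 gained IDs had no adjusted p), no count filter 446 and library size without the 10 highest IDs 442, of which 257 were higher (58.1%). For the difference from the other constructs, 60 became 153 or 245 without C1 pulldown number 1 or 2, 765 with no input correction and 27 to 60 with each replicate left out; it was 73 without a count filter, 70 without C1-APEX and 57 with library size without the 10 highest IDs. Same-numbered CBX1 inputs and pulldowns deviated with a correlation of -0.0722 over 2099 IDs. This value rests on a single pair of libraries per fraction, so it cannot settle whether the numbers pair the libraries. A replicate block gave 428 and 57 IDs. The sets of 199, 287, 48 and 12 kept their signs in each setting where signs were counted, except with the other inputs as reference. That setting kept 198 of the 199 and 283 of the 287. With no input correction, signs were not counted. The fit of only the CBX1 libraries held 194 and 286 of the first and second sets. The sets were called on these same libraries, so kept signs are at least partly fixed by the choice and are a description. ENSG00000269821.1, ENSG00000244642.3 and ENSG00000239437.3 kept their calls over input in all 12 settings, and ENSG00000245848.2 lost its call without either CBX1 input. The cause of the changes with scaling and without a C1 pulldown was not tested. Depth limits calls among scarce IDs. Shares of counts per RNA class and the gene lists were not run, since no ID could be named.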
